A study of Mus musculus with 30 samples.

Results

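The interleukin-1 and interleukin-18 genes of mouse peritoneal macrophages are described here across an LPS challenge and 3 exchanges of the cyclooxygenase genes. The 7 members are Il1a, Il1b, Il1rn, Il1r1, Il1rap, Il18 and Il18rap, found by name among the 248 target genes of an nCounter inflammation panel. On such a panel each RNA molecule is tagged with a coloured barcode and counted directly, with no amplification step. All 7 passed the filter on low values, a signal above 20 in at least 6 samples, as did 202 of the 248 target genes. There were 30 samples in 5 groups of 6 C57BL/6 mice aged 12 to 16 weeks, with cells taken 6 h after an injection into the peritoneal cavity.

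Wild-type mice received PBS (WT-LPS) or 2 mg/kg of lipopolysaccharide, a component of the bacterial wall (WT+LPS). The other groups, COX-1>COX-2, COX-2>COX-1 and Reversa, all received LPS at the same dose. The lines are known from earlier work. In COX-1>COX-2 the Ptgs2 locus carries the coding sequence of Ptgs1, which encodes cyclooxygenase-1. The converse holds for COX-2>COX-1, where the Ptgs1 locus carries that of Ptgs2, which encodes cyclooxygenase-2. Both exchanges are combined in Reversa mice. The exchange is in the germ line, so cells other than macrophages carry it too. No exchange mice received PBS, so a response to LPS within an exchange line cannot be separated from a level that the line had without LPS. No sort of the harvested cells is named in the labels.

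As background, interleukin-1 alpha (Il1a) and interleukin-1 beta (Il1b) are ligands of the same receptor, formed by Il1r1 and the accessory protein encoded by Il1rap. The product of Il1rn occupies Il1r1 without signalling and so acts as an antagonist. Interleukin-18 (Il18) acts through Il18r1 with the accessory protein encoded by Il18rap. Interleukin-1 beta and interleukin-18 are made as precursors that caspase-1 cuts in the inflammasome, and both receptors signal through the adaptor Myd88. Macrophages are a main source of these ligands, and interleukin-18 receptors are best known on T cells and natural killer cells. The panel measures RNA only.

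The promoters of Il1a and Il1b, the ligand genes that LPS moved most, and of Il18rap, which differed between genotypes, are shown for their short motifs. Each is the 250 bases before the start that RefSeq lists in GRCm38.p6, printed from 5′ to 3′ on the gene's strand, with capitals on matches to TATAAA, the core of the TATA box, TGANTCA, the AP-1 motif, TTNNGNAA, a C/EBP-type motif, and GAGGAA, a core bound by ETS factors. All of these and the NF-kB consensus were searched on both strands. The windows are chr2:129309973-129310222 on the minus strand for Il1a, chr2:129371140-129371389 on the minus strand for Il1b and chr1:40515112-40515361 on the plus strand for Il18rap.
Il1a: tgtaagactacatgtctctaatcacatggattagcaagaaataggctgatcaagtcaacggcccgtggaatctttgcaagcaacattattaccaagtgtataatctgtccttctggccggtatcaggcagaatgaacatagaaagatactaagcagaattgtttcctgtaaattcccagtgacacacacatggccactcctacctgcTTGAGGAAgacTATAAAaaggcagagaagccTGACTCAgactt
Il1b: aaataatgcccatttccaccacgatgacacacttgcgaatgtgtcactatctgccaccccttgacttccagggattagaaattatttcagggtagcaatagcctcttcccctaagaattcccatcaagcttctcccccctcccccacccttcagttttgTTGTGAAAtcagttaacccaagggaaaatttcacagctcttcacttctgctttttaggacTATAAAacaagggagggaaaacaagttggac
Il18rap: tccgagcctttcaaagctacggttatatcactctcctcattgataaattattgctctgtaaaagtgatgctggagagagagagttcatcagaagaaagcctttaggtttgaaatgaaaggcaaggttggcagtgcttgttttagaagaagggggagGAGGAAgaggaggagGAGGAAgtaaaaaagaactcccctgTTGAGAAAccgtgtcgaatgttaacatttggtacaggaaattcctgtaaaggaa
The Il1a and Il1b promoters both hold TATAAA just before the start, at -32 and -31, and Il18rap does not hold it. TATAAA stood in 12.4% of all 32851 listed promoters, at any place in the 250 bases and on either strand. The Il1a promoter also holds TGANTCA at -12, which 6.7% of promoters hold, and a run at -43 in which TTNNGNAA and GAGGAA overlap. The Il18rap promoter holds GAGGAA at -94 and at -79, a motif of 23.3% of promoters, and TTNNGNAA at -54. TTNNGNAA was found in a listed promoter of 5 of the 7 members and in 36.8% of all promoters. The percentage counts each listed start on its own, while Il1rn has 3 listed starts and Il1r1 has 2, so the 2 shares are not alike. The NF-kB consensus was found for Il1r1 alone among the members, at 1 of its 2 listed starts, and in 7.3% of all promoters. The Il1rap promoter held none of the 5 motifs, and those of Il18 and Il1rn held 1 or more. In the RefSeq gene table Il1a and Il1b lie on chromosome 2 with 2 annotations between them, an snRNA and a pseudogene. Il1r1 and Il18rap lie on chromosome 1 with 4 between them, which include the receptor genes Il1rl2, Il1rl1 and Il18r1. A match to such short letters describes the sequence and not a bound site.

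Values are the authors' deposited signal, scaled to reference genes, in arbitrary units. Each count stood for 0.646 to 1.937 units of signal, total signal was 471534 to 773828 per sample, and 1 of 240 negative control values passed 20, so values under 20 were treated as not above background. The Reversa samples 55 and 56 differed by slightly more than counting noise alone (chi-square 1.27 per gene, chi-square test p = 0.00317). The next closest pair had 19.8 per gene. Samples 55 and 56 were therefore counted as 1 sample, which leaves 5 Reversa samples. Each group held the same lanes in every one of the 3 runs, so lane position and group cannot be told apart. Ptgs2 signal was at most 1.76 in COX-1>COX-2 and Ptgs1 signal at most 5.77 in COX-2>COX-1, while Reversa cells had both transcripts. In these bulk samples, fewer cells of a type and less RNA per cell cannot be told apart.

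LPS raised all 7 members in wild-type cells under the deposited scaling, although Il1rap turned negative when samples were set to an equal median. The ligands Il1a and Il1b and the antagonist Il1rn rose by at least 62.6-fold. Il18 and the receptor genes rose by 1.39 to 5.16-fold. All 7 passed the test (limma with Benjamini-Hochberg adjustment over the 202 genes). Of the tested genes 83.7% passed, 49.5% higher and 34.2% lower. The median change of the members was 2.34 on the log2 scale and that of all tested genes 0.47.

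Il1a signal after PBS was 6.52 at the lowest, 26.9 at the median and 44.0 at the highest, with 2 of 6 samples under 20. After LPS it was 2242, 3102 and 4557. The lowest LPS sample was far above the highest PBS sample, and the rise was 146-fold between geometric means, 7.11 ± 0.34 on the log2 scale (SE, limma adjusted p = 3.77e-17, n = 6 each). Il1b behaved alike in wild-type cells, from 6.78, 38.3 and 56.4 after PBS to 3950, 4712 and 8287 after LPS. Its rise was 176-fold, 7.40 ± 0.39 on the log2 scale (limma adjusted p = 3.37e-16). The fold changes of both rest on PBS values close to background and with a pseudocount of 10 in place of 1 were smaller, 6.58 for Il1a and 6.96 for Il1b on the log2 scale.

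Il1rn, the antagonist, was under 20 in all 6 PBS samples, where it lay between 1.43 and 13.98. After LPS it was 836.6 at the lowest, 1286 at the median and 1650.3 at the highest. With the PBS values set to 20, LPS samples were at least 62.6-fold higher (limma adjusted p = 2.28e-17). Il1rn was thus measured above background in LPS-treated samples alone. Il18 differed from them in that it was clearly above background without LPS, at 421.8, 505.1 and 540.05 after PBS. After LPS it was 1011, 1309 and 1459, a 2.58-fold rise (1.37 ± 0.19 on the log2 scale, limma adjusted p = 2.28e-07). When samples were set to an equal median of the target genes, that change was 0.23 (adjusted p = 0.327).

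Of the receptor genes, Il18rap rose most. Its signal was 40.7, 52.6 and 63.0 after PBS and 215, 239 and 367 after LPS, a 5.16-fold rise (2.34 ± 0.28 on the log2 scale, limma adjusted p = 1.56e-08). Every LPS sample was above every PBS sample. Il1r1, the binding chain of the interleukin-1 receptor, was low after PBS, at 13.7, 21.4 and 53.5 with 3 of 6 samples under 20. After LPS it was 46.0, 113 and 145, a 4.41-fold rise (2.09 ± 0.41, limma adjusted p = 4.62e-05). Here the groups overlapped, because wild-type sample 52 with LPS at 46.0 was below PBS sample 40 at 53.5. Il1r1 was the only member with such an overlap, since 6 of the 7 had every LPS sample above every PBS sample, as did 45.5% of the tested genes.

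Il1rap, the accessory chain, changed least. Its signal was 303, 339 and 405 after PBS and 422, 459 and 628 after LPS, 1.39-fold higher (0.48 ± 0.16, limma adjusted p = 0.00668). The samples did not overlap under the deposited scaling. With equal total signal the change was 0.08 (adjusted p = 0.538), and with an equal median it was -0.66 (adjusted p = 0.000352), so its direction is not settled. Those scalings moved the median change of all genes by -0.40 and -1.14 on the log2 scale, and 4 reference genes without Gapdh and Pgk1 moved it by 0.51. They split the calls of all genes into 83 higher and 83 lower, 67 and 110, and 120 and 43, against 100 and 69 under the deposited scaling. The other 6 members kept a positive change under each scaling, and Il1rap was also short of the threshold within each run (0.59, 0.42 and 0.42, adjusted p = 0.0826, 0.12 and 0.153).

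**Figure D1:**
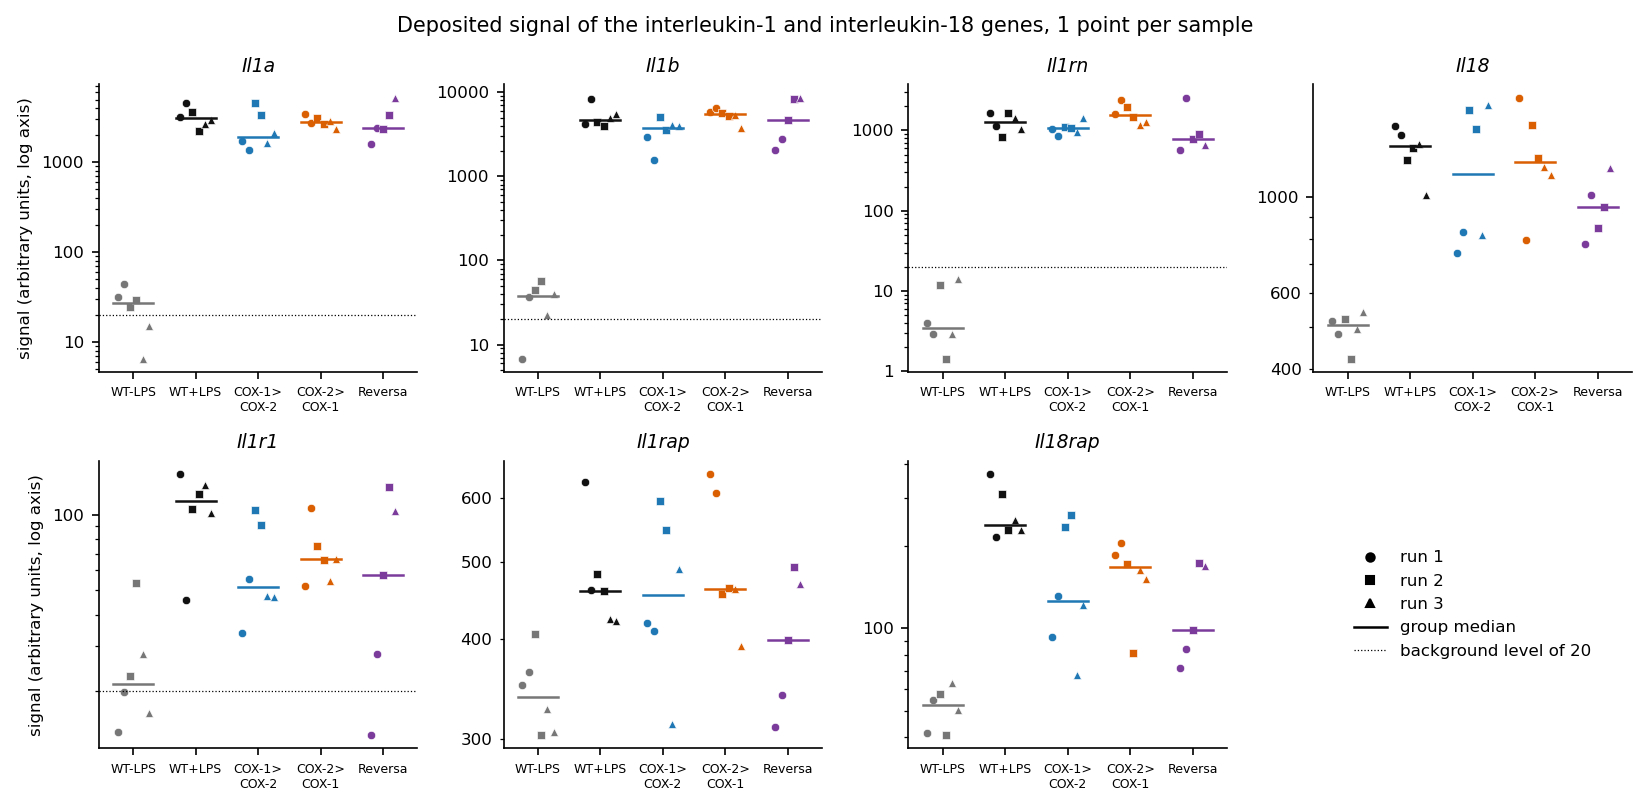
Deposited signal (arbitrary units, log axis) of each member in every sample, by group, with the marker shape giving the run and the line the group median. Dotted lines mark the background level of 20. Il1a, Il1b and Il1rn move from near or below that line to 577 or more in all LPS-treated samples, while in Il18rap the 5 Reversa and 6 COX-2>COX-1 points lie below all WT+LPS points.

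Each exchange line with LPS also lay above the wild-type PBS samples for most members. In each of the lines, 5 of the 7 members (Il1a, Il1b, Il1rn, Il18 and Il18rap) had every sample above every PBS sample. Of the tested genes the same held for 38.1% in Reversa, 42.6% in COX-2>COX-1 and 39.6% in COX-1>COX-2. Il1a was 128-fold above WT-LPS in Reversa, 132-fold in COX-2>COX-1 and 104-fold in COX-1>COX-2. For Il1b these values were 158, 185 and 115-fold, and for Il1rn at least 46.5, 79.96 and 53.1-fold. Il18rap stood 2.21, 3.03 and 2.67-fold above WT-LPS, where WT+LPS stood 5.16-fold above. All of these folds share the 6 PBS samples.

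Against WT+LPS, Il18rap in Reversa was the only member to pass the test in any exchange line. In COX-1>COX-2 0 of the 7 members passed (limma, 1 at an unadjusted p under 0.05), where 0.990% of the tested genes passed. In COX-2>COX-1 0 passed (1 unadjusted), again against 0.990%. In Reversa 1 passed and was lower, against 6.93% of tested genes lower and 8.42% in either direction, and 3 members had an unadjusted p under 0.05. The all-gene calls in Reversa split into 3 higher and 14 lower, and into 10 and 13 with equal total signal and 5 and 8 with an equal median. The 3 comparisons share the WT+LPS samples. The median change of the members was -0.43 in Reversa, -0.07 in COX-2>COX-1 and -0.48 in COX-1>COX-2, against -0.07, 0.02 and -0.09 for all tested genes.

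**Figure D2:**
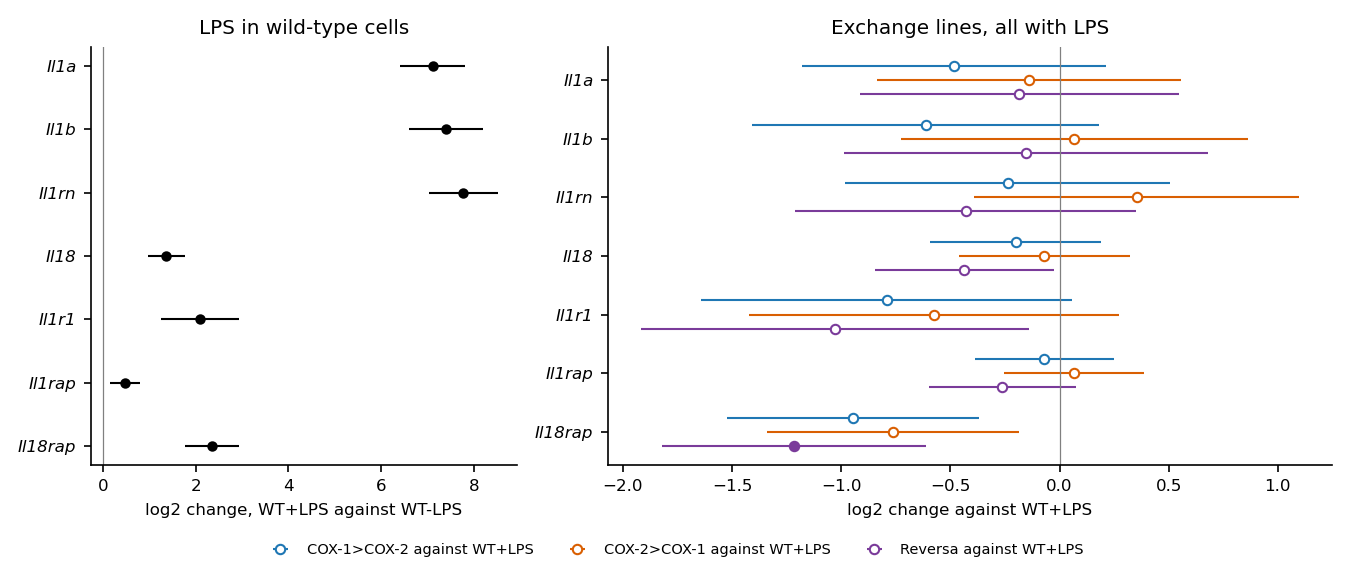
Log2 change of each member after LPS in wild-type cells (left) and in each exchange line against WT+LPS (right), with 95% confidence intervals from limma; on the right a filled point passed the adjusted threshold of 0.05. The filled point is Il18rap in Reversa at -1.22. The left-hand point of Il1rap at 0.48 turns to -0.66 when samples are set to an equal median.

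Il18rap signal in the 5 Reversa samples was 71.7, 84.0, 98.8, 173.8 and 169.5. All 5 were below the lowest WT+LPS sample at 215, a separation that 3.96% of the tested genes showed in the lower direction. The geometric mean was 2.34-fold lower, a log2 change of -1.22 ± 0.29 with a 95% interval of -1.82 to -0.61 (limma adjusted p = 0.00911, the 7th smallest p of the 202). Reversa was still above PBS, whose highest sample was 63.0. The change passed in 24 of 26 alternative settings, and the exceptions were runs 2 and 3 alone, which are given with the runs below.

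In the single exchanges Il18rap also had low values, without passing the test. COX-2>COX-1 samples were 81.4 at the lowest, 168 at the median and 205 at the highest, all 6 below all WT+LPS samples, as were 1.49% of the tested genes. The change was -0.76 ± 0.28 (limma adjusted p = 0.193, unadjusted 0.0114). COX-1>COX-2 samples were 67.5, 126 and 259, of which 4 of 6 lay below all WT+LPS samples. The other two, samples 59 and 60 of run 2, at 235 and 259, lay within the wild-type range. The change was -0.95 ± 0.28 (limma adjusted p = 0.144), the 3rd smallest p of that comparison, and without sample 59 or sample 60 the adjusted p was 0.0392 or 0.0173.

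None of the ligands Il1a, Il1b and Il18 passed against WT+LPS in any line. COX-1>COX-2 samples had an Il1a signal of 1383, 1928 and 4588 (lowest, median and highest) and COX-2>COX-1 samples of 2358, 2793 and 3487. The 5 Reversa samples were at 1598, 2426, 2358, 3348 and 5256. The coefficient of variation of Il1a was 25.1% in WT+LPS, 13.6% in COX-2>COX-1, 46.9% in Reversa and 50.6% in COX-1>COX-2, and differences in spread were not tested. The changes against WT+LPS were -0.48, -0.14 and -0.18 on the log2 scale, in the order COX-1>COX-2, COX-2>COX-1, Reversa (limma adjusted p = 0.63, 0.938 and 0.828). All groups overlapped.

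Il1b was 1566, 3739 and 5019.7 in COX-1>COX-2 and 3753, 5515 and 6524 in COX-2>COX-1. The Reversa samples were 2063, 2768, 4704, 8381 and 8661, with 2 of 5 below and 2 of 5 above every WT+LPS sample. The changes were -0.61, 0.07 and -0.15 (limma adjusted p = 0.569, 0.968 and 0.89), with intervals of -1.41 to 0.18, -0.73 to 0.86 and -0.99 to 0.68. A change of 1.5-fold in Il1b in either direction therefore lay within the interval for COX-2>COX-1 and for Reversa. Il18 was 741, 1132 and 1635 in COX-1>COX-2 and 794, 1202 and 1697 in COX-2>COX-1. The Reversa samples were 778, 1010.2, 848, 948 and 1169, of which 4 of 5 lay below every WT+LPS sample. The change of Il18 in Reversa was -0.44 ± 0.20 (limma adjusted p = 0.186, unadjusted 0.0377), and those in the single exchanges were -0.20 and -0.07.

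Il1rn was 849.7, 1059 and 1415 in COX-1>COX-2 and 1165, 1535 and 2416 in COX-2>COX-1. In Reversa 4 samples lay between 577 and 914, and sample 52 was at 2569, above every other sample of the series. Against WT+LPS the changes were -0.24, 0.35 and -0.43 in COX-1>COX-2, COX-2>COX-1 and Reversa (limma adjusted p = 0.846, 0.772 and 0.543). Without Reversa sample 52 the last was -0.80 (adjusted p = 0.175). The order of the group medians was COX-2>COX-1, WT+LPS, COX-1>COX-2 and Reversa, and no pair of these groups passed.

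Il1r1 was lower than the median of WT+LPS in all 12 samples of the single exchanges without passing. COX-1>COX-2 samples were 33.8, 51.6 and 104 and COX-2>COX-1 samples 51.9, 66.4 and 106. The Reversa samples were 13.3, 27.9, 57.7, 128 and 104, which covers the range from background to wild type. The changes were -0.79, -0.58 and -1.03 (limma adjusted p = 0.504, 0.599 and 0.172), and without Reversa sample 54 the last was -1.37 with an adjusted p of 0.0399. Il1rap was 310.5 to 492 in Reversa, 392, 463 and 643 in COX-2>COX-1 and 314, 454 and 595 in COX-1>COX-2. Its changes were -0.07, 0.07 and -0.26 (limma adjusted p = 0.905, 0.938 and 0.359).

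In Reversa all 7 members had a change below 0, with 56.9% of all tested genes, and likewise in COX-1>COX-2, with 61.9%. With equal total signal Il1a and Il1b in Reversa turned to 0.01 and 0.04 and Il1rap in COX-1>COX-2 to 0.11, so the count of 7 depends on the scaling. In COX-2>COX-1 4 of the 7 were below 0, with 47.5% of all tested genes.

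Compared directly with each other, the exchange lines gave no member past the threshold. Between COX-1>COX-2 and COX-2>COX-1 0 of 7 passed (limma, 0 unadjusted) where 5.94% of tested genes did. Between Reversa and COX-1>COX-2 0 of 7 passed (0 unadjusted) where 1.49% did, and between Reversa and COX-2>COX-1 0 of 7 (1 unadjusted) where 10.9% did. For Il18rap the differences were -0.18 (95% interval -0.76 to 0.39) for COX-1>COX-2 against COX-2>COX-1, -0.27 (-0.88 to 0.33) for Reversa against COX-1>COX-2 and -0.45 (-1.06 to 0.15) for Reversa against COX-2>COX-1. These intervals leave room for differences of over 1.5-fold, so the passing of Il18rap in Reversa alone does not separate Reversa from the single exchanges. The member with an unadjusted p under 0.05 was Il1rn, with a change of -0.78 for Reversa against COX-2>COX-1 (limma adjusted p = 0.222, unadjusted 0.0494), and of -1.15 without Reversa sample 52 (adjusted p = 0.0491).

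Whether the exchanges add up on the log2 scale was tested as an interaction. Of the members 0 passed (limma, 0 unadjusted), where 1.98% of tested genes did. For Il18rap the sum of the single exchanges would be lower than the Reversa change by 0.49 ± 0.41 (limma adjusted p = 0.872, 95% interval -0.34 to 1.33). For Il1rn the interaction was -0.54 ± 0.53 (limma adjusted p = 0.909).

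Within some groups the levels differed between runs. In run 1 both Reversa samples were low in Il1b (mean 2415 against 6220 in WT+LPS), in run 2 the mean was 6543 against 4191, and in run 3 the Reversa value was 8661 against a mean of 5285. Reversa cells in run 1 had means of 2012 for Il1a, 20.6 for Il1r1 and 1573 for Il1rn, against 5256, 104 and 652 in run 3. COX-1>COX-2 samples were highest in run 2 for Il1a, at a mean of 3968 against 1560.05 and 1876 in the other runs.

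Il18rap in Reversa was below the WT+LPS mean of the same run in each run, at 77.9 against 291, 136 against 270.2 and 169.5 against 239. Fitted within run 1 its change was -1.84 (limma adjusted p = 0.0326), within run 2 -1.02 (adjusted p = 0.24) and within run 3, with a single Reversa sample, -0.49 (adjusted p = 0.46). A run has 1 or 2 samples a group. COX-1>COX-2 was at 112, 247 and 94.4 for Il18rap, so that in run 2 it was close to wild type. Which property of a run moved with these levels was not tested.

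**Figure D3:**
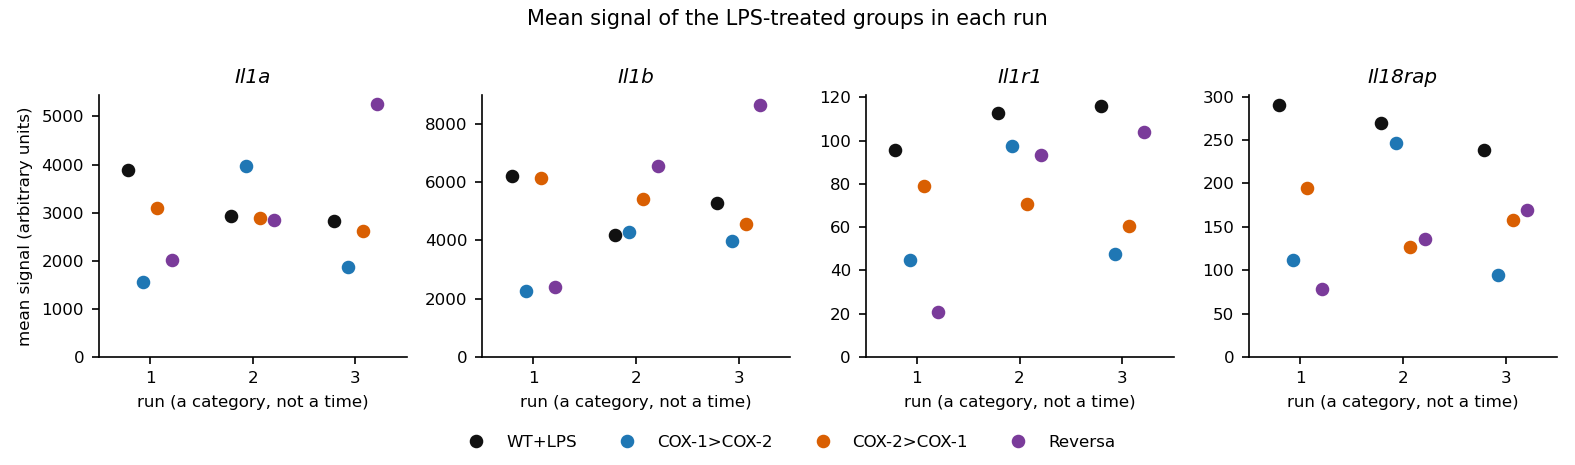
Mean signal (arbitrary units, linear axis from 0) of 4 members in the LPS-treated groups in each of the 3 runs, each point the mean of 2 samples, or of 1 for Reversa in run 3. Reversa lies below WT+LPS in every run for Il18rap, while for Il1b it lies below in run 1 and above in runs 2 and 3.

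The balance of antagonist and ligand was looked at as a ratio of signals within a sample, which is compared only across groups because probes of different genes are not on a common scale. The ratio of Il1rn to Il1b had a median of 0.239 in WT+LPS (0.136 to 0.418), 0.314 in COX-2>COX-1 (0.216 to 0.370) and 0.329 in COX-1>COX-2 (0.222 to 0.543). In Reversa the median was 0.167 and the range 0.0753 to 0.928, wider than in the other LPS-treated groups on both sides. The upper end was sample 52, and sample 51 came next at 0.280. The ratio of Il1b to Il1a stayed between 1.05 and 2.50 in all 23 LPS-treated samples, with medians of 1.79, 1.42, 1.85 and 1.65 in WT+LPS, COX-1>COX-2, COX-2>COX-1 and Reversa. The ratio of Il18rap to Il18 had a median of 0.207 in WT+LPS and of 0.137, 0.126 and 0.116 in COX-1>COX-2, COX-2>COX-1 and Reversa. In PBS samples it was 0.104. The LPS-treated groups overlapped in each of these ratios, and the ratios were not tested.

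Across the 23 LPS-treated samples, after each group's mean was subtracted, Il1a and Il1b moved together. Pearson's r was 0.759 (permutation p = 0.00062, adjusted 0.00186 over 3 relations) and Spearman's rho 0.675 (adjusted permutation p = 0.00759). Permutations moved samples across runs within a group, so the permutation p-values here do not allow for likeness of samples within a run. With run means removed as well, r was 0.759. Without the 2 samples farthest from the median of Il1a r was 0.698, and with equal total signal 0.688. Over the samples of runs 1, 2 and 3 taken apart it was 0.889, 0.632 and 0.752 (8, 8 and 7 samples). The values per run use deviations from the group mean over all runs, so shifts between runs within a group remain in them. For Il1b and Il1rn no relation passed (r = -0.0442, adjusted permutation p = 0.932, rho = 0.110, adjusted 0.664). That pair's r was -0.381 without the 2 farthest samples and had either sign over the samples of single runs (0.127, 0.0393 and -0.141). Il18 and Il18rap had r = 0.474 (permutation p = 0.0823, adjusted 0.123) and rho = 0.452 (adjusted 0.106), and r = 0.123 with equal total signal. Without the 2 farthest samples that r was 0.574.

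**Figure D4:**
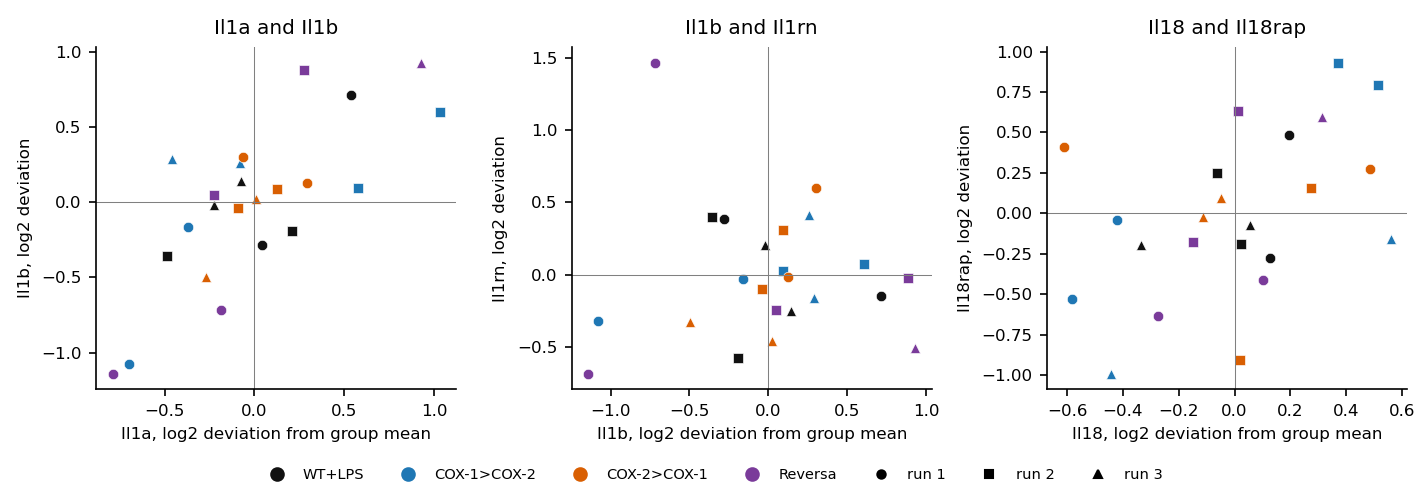
Log2 deviation of each LPS-treated sample from its group mean for 3 pairs of members, with colour for the group and shape for the run. Il1a and Il1b rise along the diagonal (r = 0.759), Il1b and Il1rn show no slope (r = -0.0442), with Reversa sample 52 alone at the top, and Il18 and Il18rap lie between (r = 0.474).

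Over all pairs of members the same group-centred correlation was highest between the accessory chains Il1rap and Il18rap (r = 0.809), followed by Il1a with Il1b and by Il1r1 with Il18rap (0.701). Il1rn stood apart, with r between -0.044 and 0.198 to the other 6. The median over all 20301 pairs of tested genes was 0.094. All values of a sample share its scaling and its input RNA, which can raise such correlations.

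The genes whose group-centred pattern over these 23 samples was most like that of each member were named in the same way. For Il1a they were the chemokine gene Cxcl2 (r = 0.947), the phospholipase gene Pla2g4a (0.913) and Nlrp3 (0.893), and for Il1b Chi3l3 (0.815), Cxcl2 (0.797) and Cxcl3 (0.769). For Il1rn they were Tnfsf14 (0.821), Pdgfa (0.780) and Il15 (0.739). For Il18 they were the interferon-induced Oas1a (0.883), the chemokine gene Ccl2 (0.863) and Map2k1 (0.859). For Il1r1 they were Cysltr1 (0.830), Il23r (0.787) and Mmp9 (0.785), for Il1rap Mapkapk2 (0.896), Rapgef2 (0.879) and Tnfaip3 (0.846), and for Il18rap Plcb1 (0.874), the lipoxygenase gene Alox15 (0.830) and Rapgef2 (0.811).

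Of the wider pathway, 1 of 12 listed inflammasome genes was on the panel, Nlrp3, whose product is an inflammasome sensor. Its signal rose from 288 ± 79.4 to 2923 ± 633 with LPS (SD, n = 6 each), 3.36 ± 0.27 on the log2 scale (SE, limma adjusted p = 5.38e-12), and did not pass between LPS-treated groups. Reversa cells had a level of 1819 ± 918 (n = 5), COX-2>COX-1 cells 2163 ± 440.3 and COX-1>COX-2 cells 2237 ± 783 (SD, n = 6 each). None of 15 other listed genes of the family, such as Il18r1 or the decoy receptor Il1r2, was analysed here.

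Of 30 listed signal transducers, 11 were tested, of which 8 rose and 2 fell with LPS. Of all tested genes 49.5% rose and 34.2% fell. Tnfaip3, an inhibitor of NF-kB signalling, rose by 5.08 ± 0.16 on the log2 scale (limma adjusted p = 2.73e-21). The kinase genes Map2k6 and Mapk14 fell by 5.15 and by 2.27 (SE 0.42 and 0.22, limma adjusted p = 5.38e-12 and 2.45e-10). Map2k6 was under 20 in all 6 WT+LPS samples, so the size of its fall depends on the pseudocount. Of the 11, 0 passed in any comparison between LPS-treated groups, where 0.990% to 10.9% of all tested genes passed, by comparison. Of 21 listed genes that interleukin-1 or interleukin-18 is known to induce, 14 were tested, of which 13 rose with LPS and 1 fell. The granulocyte growth factor gene Csf3 rose by 10.49 ± 0.22, Cxcl3 by 10.90 ± 0.41 and Ccl2 by 6.46 ± 0.19 (limma adjusted p = 2.35e-25, 1.81e-19 and 6.58e-22). Csf3 and Cxcl3 were under 20 in every PBS sample, so the sizes of their changes depend on the pseudocount. LPS itself induces many of these genes. Between the LPS-treated groups 2 of the 14 passed anywhere, Ptgs2, which is an exchanged gene, and Csf2. Csf2, the granulocyte-macrophage growth factor gene, was higher in Reversa than in COX-1>COX-2 by 2.09 ± 0.40 (limma adjusted p = 0.00167), with a mean signal of 79.5 ± 43.1 against 16.5 ± 7.32. It was under 20 in 4 of 6 COX-1>COX-2 samples, so the size of that difference rests on values not above background.

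Markers of the cells that the harvest could hold were measured beside these results. The 8 macrophage markers on the panel, C1qa and C1qb among them, summed to 103636 to 144123 after PBS and 31341 to 57729 in WT+LPS. Of the 8, 6 fell with LPS, as did 34.2% of all tested genes. In Reversa the sum of the 8 markers was 15671 to 38845. There C1qa, C1qb and Trem2 were lower than in WT+LPS, with changes of -0.92, -0.77 and -1.63 (limma adjusted p = 0.0155, 0.0303 and 0.00652), in the comparison in which Il18rap was lower. In that comparison 6.93% of all tested genes were lower. Trem2 was under 20 in 3 of 5 Reversa samples, so the size of its change depends on the pseudocount. Between the exchange lines C1qa passed as lower for Reversa against COX-2>COX-1 and Trem2 as lower for Reversa against COX-1>COX-2. Of all tested genes 10.9% and 1.49% passed there in either direction. The 5 T cell or natural killer cell markers summed to 237 to 431 after PBS, where Ifng and Il2 were under 20 in all samples, and of the 4 tested Ifng and Fasl rose and Cd4 and Cd40lg fell with LPS. Their sum was 481 to 1245 in WT+LPS, 244 to 780.4 in Reversa, 465 to 1094 in COX-2>COX-1 and 270.01 to 1430 in COX-1>COX-2, with Il2 under 20 in all samples. Of these, 4 were tested and 0 passed in any line against WT+LPS, where 0.990% to 8.42% of all tested genes passed, by line. Between the exchange lines 1 of the 4 passed, Cd4. It changed by -1.17 for Reversa against COX-2>COX-1 and by -0.89 for COX-1>COX-2 against COX-2>COX-1 (limma adjusted p = 0.00398 and 0.0284). Of all tested genes 10.9% and 5.94% passed in these comparisons. The part of these cells in the level of Il18rap was not tested.

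The other marker lists were short on the panel. The 2 neutrophil markers summed to 59.7 to 228 after PBS, 70.3 to 111 in WT+LPS and 17.2 to 309 in Reversa. That sum hides opposite changes with LPS, 4.25 for Cxcr2 and -1.40 for Mmp9 on the log2 scale (limma adjusted p = 6.16e-10 and 0.00458). Cxcr2 was under 20 in all PBS samples. The 2 B cell markers summed to 3900.05 to 5150.04 after PBS, 623 to 1047 in WT+LPS and 342 to 1513 in Reversa. Of the 2, Ltb changed by -3.71 with LPS (limma adjusted p = 5.66e-12) and Hsh2d by 0.49 (limma adjusted p = 0.117). The 2 mesothelial or stromal markers, Flt1 and Areg, summed to at most 6.5 after PBS, 51.0 to 82.8 in WT+LPS and 71.3 to 169 in Reversa. Both were under 20 in all PBS samples, and Areg also in 4 of 6 WT+LPS samples. Both passed as higher with LPS, as did 49.5% of all tested genes, with a change of 3.53 for Flt1 (limma adjusted p = 4.82e-12). Flt1 was also higher than in COX-2>COX-1 by 0.98 in COX-1>COX-2 and by 0.95 in Reversa (limma adjusted p = 0.0345 and 0.0421). The 4 mast cell or eosinophil markers summed to 9.37 to 34.0 after PBS and to 9.92 to 74.6 in WT+LPS, where Ccr3, Il4 and Il13 were under 20 in all samples, and to 62.4 to 300 in Reversa. There the cytokine genes Il13 and Il5 were higher than in WT+LPS by 2.34 and 2.43 on the log2 scale (limma adjusted p = 0.000509 and 0.0164). Il5 was also under 20 in 4 of 6 WT+LPS samples, so the sizes of both changes depend on the pseudocount. Against COX-2>COX-1, where Il13 was under 20 in 5 of 6 samples, Il13 in Reversa was higher by 1.53 (limma adjusted p = 0.0218). The part of these cells in the results was not tested.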

How the data were processed

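RNA of at least 7.0 integrity at 20 ng/µl was measured, per the labels' protocols. The authors deposited a signal for each gene in each sample, made with software not given in the sources used. Read from the values, the deposited signal is background-subtracted with a floor of 1 and scaled to a geometric mean of Cltc and Gapdh of 8147.9. The authors deposited 2 tables with equal values in the 266 shared rows. The whole steps between low values gave 298289 to 1001733 counts per sample. Because the values are not counts, log2(signal + 1) was tested with limma 3.58.1 in R 4.3.3 (lmFit, eBayes), all 29 samples in 1 fit, two-sided, Benjamini-Hochberg over 202 genes, threshold 0.05. Fold changes on that scale understate the change of low genes. Correlations used 100000 permutations within groups. The fit was tested on simulated data.

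Members and gene lists were chosen with earlier results of these data known. The named genes are the 7 members, Ptgs1 and Ptgs2, the 3 smallest p-values of each pathway list after LPS with any that passed between LPS-treated groups, and the 3 genes most correlated with each member. Marker genes said to rise, fall, or be higher or lower passed in that comparison. The labels give 6 mice per group. Alternatives were other scalings, filters, a pseudocount of 10, only the groups compared, Reversa 55 and 56 kept apart, a variance trend, the run as a block or alone, the replicate number as a block and the removal of each sample.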

Additional observations from a re-analysis of the deposited data

Results flagged for a closer look

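In 3 of the 35 sets of samples, each 1 member in 1 group, a sample stood far from the others, its gap to the next sample being over Dixon's 95% limit as a share of the range. For normally distributed values chance gives about 1 in 20 such sets. The rule was applied to the signal itself and not to its log2, so that rate is only a rough guide here. Il1rn in Reversa was 2569 in sample 52, with a gap share of 0.831. Il1rap in WT+LPS was 628 in sample 51, with a gap share of 0.706. Il1r1 in WT-LPS was 53.5 in sample 40, with a gap share of 0.642.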

How the results depend on the processing

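The count of members past the threshold after LPS was 7, except that 3 were tested and passed when signal had to exceed 20 in all samples, that 6 rose under equal total signal and in each run alone, all but Il1rap, and that 5 rose and Il1rap fell under an equal median. Leaving out a sample gave 7 after LPS, 1 to 2 in Reversa, 0 in COX-2>COX-1, 0 to 1 in COX-1>COX-2 and 0 to 1 for Reversa against COX-2>COX-1. In Reversa against WT+LPS the count was 0 in run 2 and in run 3 alone, which have fewer samples.

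Changes that turned sign are listed for all members after LPS and against WT+LPS. In the other comparisons only Il18rap and Il1rn were followed. None of the turned changes was past the threshold except Il1rap after LPS (-0.66, equal median). In COX-1>COX-2, Il1rap was 0.11 with equal total signal and 0.0042 with an equal median, and in run 2 Il1a, Il1b, Il18 and Il1rap were 0.46, 0.0073, 0.26 and 0.28. In COX-2>COX-1, Il1b and Il1rap were -0.016 and -0.018 with equal total signal and -0.034 and -0.036 with 6 reference genes. There run 2 gave 0.015, 0.097 and -0.034 for Il1a, Il18 and Il1rap, and run 3 gave -0.23 and -0.016 for Il1b and Il1rn. In Reversa, Il1a and Il1b were 0.012 and 0.043 with equal total signal, and Il1b was 0.0013 with samples 55 and 56 apart and 0.59 in run 2. Run 3 gave 0.89, 0.71, 0.014 and 0.15 for Il1a, Il1b, Il18 and Il1rap. Between lines, Il18rap for COX-1>COX-2 against COX-2>COX-1 was 0.075 with equal total signal and 1.05 in run 2. Against COX-1>COX-2, Reversa was at 0.90 for Il18rap in run 3 and 0.37 for Il1rn in run 1. Against COX-2>COX-1 it was at 0.15 and 0.11 for Il18rap in runs 2 and 3. The r of Il1b and Il1rn was 0.127 and 0.0393 in runs 1 and 2. The cause of these turns was not tested.

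Leaving out a sample gave ranges across 0 for Il1rap in COX-1>COX-2 (-0.15 to 0.036), for Il1b, Il18 and Il1rap in COX-2>COX-1 (-0.0037 to 0.21, -0.17 to 0.052 and -0.0092 to 0.15), for Il1a and Il1b in Reversa (-0.42 to 0.013 and -0.39 to 0.13) and for Il18rap between the single exchanges (-0.37 to 0.015). Between lines these ranges were followed for Il18rap and Il1rn only. For Il18rap in Reversa against WT+LPS the range was -1.37 to -1.06, with limma adjusted p from 0.00343 to 0.0427.

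Same-numbered samples of WT+LPS, COX-2>COX-1 and Reversa had r from -0.352 to 0.208. Differently numbered samples were not compared, so whether the replicate numbers pair the samples is not settled. With the number as a block, Il18rap in Reversa was -1.12 (adjusted p = 0.0393), Il1b was 0.0013, and the all-gene count for Reversa against COX-2>COX-1 was 12 against 22.

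All-gene counts moved by over 1.5 times in several settings. From 169 after LPS the count was 111 in run 1 alone. From 17 in Reversa it was 9 without sample 51, 9 with only the groups compared, 10 with signal above 20 in all samples and 5 to 9 in single runs. From 2 in COX-1>COX-2 it was 1 to 5 with a sample left out and 1 in single runs, and from 2 in COX-2>COX-1 it was 4 without a filter. From 12 between the single exchanges it was 2 to 26, from 3 for Reversa against COX-1>COX-2 0 to 20, from 22 for Reversa against COX-2>COX-1 4 to 25, and from 4 for the interaction 1 to 6. Low signal limits Il1a, Il1b, Il1rn and Il1r1 after PBS.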
